A study of Mus musculus with 6 samples.

Results

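Haemoglobin is built from alpha-type and beta-type globin chains, whose genes lie in separate clusters and are transcribed at very high levels in red cell precursors. The yolk sac makes large primitive red cells early in development, and these use the embryonic genes Hba-x (zeta globin), Hbb-y (epsilon y globin) and Hbb-bh1 (beta h1 globin). From mid-gestation the fetal liver releases definitive red cells, which use the adult genes Hba-a1 and Hba-a2 for the alpha chain and Hbb-bs and Hbb-bt for the beta chain. The 7 globin genes taken here are these 3 primitive and 4 definitive genes, chosen by name and not by their values, among the 23073 genes with a value in the diaphragm RNA-Seq data. All 7 were above the floor that stands for no reads in every library.

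The series compared diaphragm muscle of mouse embryos at E14.75 that did or did not have Schwann cells, the glia of the motor nerve. Whole-muscle RNA was sequenced from 2 erbB3 wild-type embryo libraries, numbered 5 and 6, and from 2 erbB3 KO libraries, numbered 1 and 2 and called mutant here, whose muscle is described in the labels as having lost its Schwann cells. The other 2 libraries, Wnt1-Ribotag 1 and 2, carry the Wnt1-Cre and Ribotag alleles and are labelled erbB3 WT. In them the Wnt1 promoter drives Cre, and Cre turns on a haemagglutinin-tagged ribosomal protein in neural crest and its descendants. RNA was taken by precipitating the tagged polysomes from pooled diaphragms. By the paper's methods, the diaphragms of a whole litter were homogenized before genotyping, which found only part of the embryos to be Cre-positive. Each library stands for 4 pooled diaphragms with both alleles. Whether Cre-negative diaphragms stayed in the pool is not stated. Blood cells do not descend from neural crest. Far less RNA entered the Wnt1-Ribotag libraries than the whole-muscle ones, so that allele, pooling, precipitation and input differ together against wild-type libraries, and the erbB3 genotype differs as well against mutant libraries. These factors cannot be told apart.

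Values are RPKM (read numbers divided by gene length and by the depth of the library), a scale on which levels of different genes can be compared per length. The depth read from the floor values lay between 100178863 and 230216660 mapped reads, and between 17205 and 20349 genes were above the floor. Skeletal muscle genes were abundant in every library, with 507 to 1315 RPKM for the actin gene Acta1. Sox10, a transcription factor of Schwann cells, was at 2.16 to 2.89 RPKM in wild-type, 0.009 to 0.018 in mutant and 15.5 to 32.2 in Wnt1-Ribotag libraries, whereas the targeted gene Erbb3 overlapped, at 16.5 and 15.8 RPKM in the wild-type and 21.5 and 11.9 in the mutant libraries. Wild-type 5 stood apart from wild-type 6 in its red cell and liver transcripts, and medians over the globins and over several of the lists are given also without each of these libraries. The 2 libraries of a group are described as separate diaphragm samples, those of Wnt1-Ribotag as separate pools, so p-values measure the spread between such samples. In bulk RNA, fewer red cells and less globin RNA per cell cannot be told apart.

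The alpha-type genes lie on chromosome 11 of GRCm38, on the plus strand, with Hba-x (ENSMUSG00000055609) from 32276400 to 32278116, Hba-a1 (ENSMUSG00000069919) from 32283511 to 32284465 and Hba-a2 (ENSMUSG00000069917) from 32296489 to 32297298. The beta-type genes lie on the minus strand of chromosome 7, with Hbb-bt (ENSMUSG00000073940) from 103812524 to 103813996, Hbb-bs (ENSMUSG00000052305) from 103826534 to 103828096, Hbb-bh1 (ENSMUSG00000052217) from 103841637 to 103843164 and Hbb-y (ENSMUSG00000052187) from 103851749 to 103853216. In both clusters the embryonic genes therefore stand 5' of the adult ones. In coding sequence, Hba-a1 and Hba-a2 differed at 1 of 429 aligned bases and Hbb-bt and Hbb-bs at 1 of 444. Hba-x shared 64.9% of aligned coding bases with Hba-a1, and Hbb-y shared 76.4% with Hbb-bh1 and 74.3% with Hbb-bs.

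This likeness bears on which values are certain. Of all 50-base windows of the longest coding transcript, 67.5% for Hba-a1 and 86.9% for Hba-a2 also occurred in the other gene of the pair, and the shares were 58.3% for Hbb-bt and 65.8% for Hbb-bs. For the 3 primitive genes the share was 0.0%. How the authors' counting treated such reads, which may be divided, dropped or counted in both genes, is not given in the sources used here. The levels of the adult genes, the sum of each pair, and the shares and ratios taken from them are therefore uncertain, more so for the alpha pair, where more windows were shared. Between libraries the ratio of Hba-a1 to Hba-a2 RPKM stayed within 1.06 to 1.08, and that of Hbb-bs to Hbb-bt within 1.23 to 1.31.

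To show what the embryonic and adult genes have in common and where they differ before the start of transcription, the 250 bases upstream of the RefSeq start site are given for an embryonic and an adult gene of each cluster (RefSeq, GRCm38.p6, 5' to 3' on the gene's own strand). Capitals mark the letters CACCC (the box bound by Klf1-type factors), CCAAT (the CCAAT box), GATAA (the motif of GATA factors) and TATAA (the TATA box), searched on both strands, so that a match on the opposite strand stands as its reverse complement.
Hba-x: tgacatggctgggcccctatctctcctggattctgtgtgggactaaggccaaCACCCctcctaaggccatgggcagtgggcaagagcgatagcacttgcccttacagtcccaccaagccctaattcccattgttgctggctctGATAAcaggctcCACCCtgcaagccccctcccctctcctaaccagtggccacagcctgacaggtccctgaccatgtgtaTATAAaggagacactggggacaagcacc
Hba-a1: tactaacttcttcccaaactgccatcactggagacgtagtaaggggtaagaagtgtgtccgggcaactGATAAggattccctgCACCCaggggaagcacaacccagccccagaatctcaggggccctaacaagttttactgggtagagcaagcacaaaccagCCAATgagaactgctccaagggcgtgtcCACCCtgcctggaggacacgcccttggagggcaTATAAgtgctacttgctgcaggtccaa
Hbb-y: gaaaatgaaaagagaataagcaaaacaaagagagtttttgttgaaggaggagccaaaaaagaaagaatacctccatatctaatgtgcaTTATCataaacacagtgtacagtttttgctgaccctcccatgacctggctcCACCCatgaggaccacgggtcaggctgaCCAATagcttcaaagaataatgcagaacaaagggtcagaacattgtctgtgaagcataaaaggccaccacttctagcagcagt
Hbb-bs: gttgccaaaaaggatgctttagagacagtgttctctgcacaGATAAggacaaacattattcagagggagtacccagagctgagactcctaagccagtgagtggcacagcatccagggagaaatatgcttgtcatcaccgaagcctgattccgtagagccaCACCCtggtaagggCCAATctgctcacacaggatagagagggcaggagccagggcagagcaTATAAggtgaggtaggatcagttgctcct
The windows are chr11:32276350-32276599 (Hba-x, plus strand), chr11:32283422-32283671 (Hba-a1, plus strand), chr7:103853208-103853457 (Hbb-y, minus strand) and chr7:103827929-103828178 (Hbb-bs, minus strand). RefSeq and the annotation behind the gene positions above place some starts differently, so a window can overlap the gene as listed there. Of the 7 genes, 6 have an entry in the promoter table, and Hbb-bh1 does not.

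All 6 upstream windows held a CACCC box and all 6 a GATA motif. Of 32851 mouse upstream windows of the same length, 52.0% held the CACCC box and 22.6% the GATA motif. The CCAAT box stood in 5 of the 6, all but Hba-x, against 33.8% of all windows, and the TATA box in 5 of the 6, all but Hbb-y, against 22.8%. In Hba-x, Hba-a1, Hba-a2, Hbb-bs and Hbb-bt a TATA box on the gene's strand began between position -30 and position -27, counted back from the start. These are matches of letters in a window and were not tested as binding sites. The windows of Hba-a1 and Hba-a2 hold nearly the same sequence, slightly shifted, with the CCAAT box beginning at -88 and -91. The 6 windows are therefore not all separate cases.

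The adult alpha globins were the most abundant of the 7 genes in every library. Hba-a1 was at 5095 and 2686 RPKM in wild-type 5 and 6, at 3818 and 3112 in mutant 1 and 2, and at 2193 and 2102 in Wnt1-Ribotag 1 and 2. In order of RPKM among all genes it stood between place 4 and place 6. Hba-a2 was at 4788, 2530, 3607, 2940, 2036 and 1980 RPKM in the same order of libraries. For both genes wild-type 5 was highest, the Wnt1-Ribotag libraries were lowest, and both mutant libraries lay between the wild-type ones.

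The adult beta globins came next. Hbb-bs was at 2620 and 1230 RPKM in wild-type 5 and 6, at 2197 and 1726 in mutant 1 and 2, and at 1044 and 889 in Wnt1-Ribotag 1 and 2. Hbb-bt was at 2041, 961, 1781, 1328, 798 and 683 RPKM in that order. Their order over the libraries was the same as for the adult alpha genes.

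Among the embryonic genes the levels were spread over a far wider range. Hbb-y was at 358 and 346 RPKM in wild-type 5 and 6, at 246 and 349 in mutant 1 and 2, and at 178 and 132 in Wnt1-Ribotag 1 and 2. Hba-x was at 16.1, 10.7, 11.5, 11.2, 13.2 and 17.6 RPKM, and Hbb-bh1 at 2.60, 1.78, 1.29, 1.63, 0.651 and 0.539 RPKM. Hbb-y was high and alike in wild-type 5, wild-type 6 and mutant 2 and lowest in the Wnt1-Ribotag libraries, Hbb-bh1 was lowest there too, and Hba-x was highest in Wnt1-Ribotag 2. With the annotated exonic length of 613 bases, Hbb-bh1 would correspond to roughly 49 to 251 reads per library, so its values are the least precise of the 7. The length used by the authors is not given in the sources used here.

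**Figure D1:**
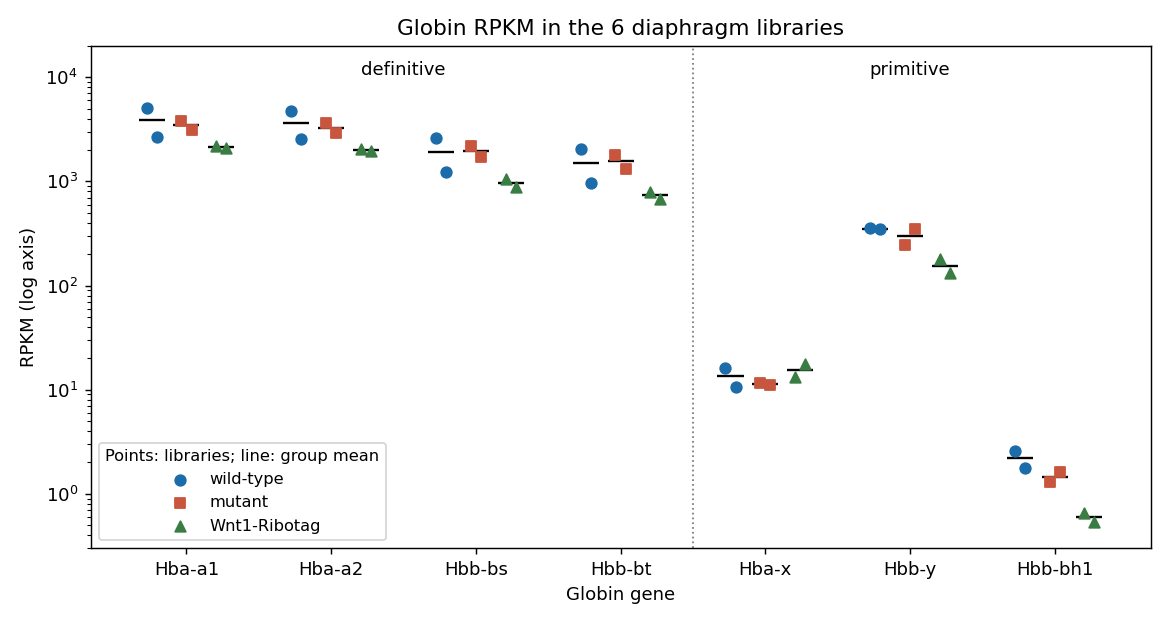
RPKM of the 7 globin genes on a log axis, 1 point per library (circles wild-type, squares mutant, triangles Wnt1-Ribotag), with a line at each group mean. The adult genes lie between 683 and 5095 RPKM, Hbb-y between 132 and 358, Hba-x between 10.7 and 17.6 and Hbb-bh1 between 0.539 and 2.60, and the Wnt1-Ribotag points are the lowest for every gene but Hba-x.

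In each library the order was Hba-a1, Hba-a2, Hbb-bs, Hbb-bt, Hbb-y, Hba-x and Hbb-bh1. Neighbours within an adult pair overlapped in the wild-type and in the mutant libraries, and did not overlap in the Wnt1-Ribotag ones. In wild-type muscle Hba-a1 was at 3891 ± 1703 RPKM (SD, n = 2) and Hba-a2 at 3659 ± 1596 (SD, n = 2), and Hbb-bs was at 1925 ± 983 (SD, n = 2) and Hbb-bt at 1501 ± 764 (SD, n = 2). The step from the adult genes to Hbb-y, at 352 ± 8.28 (SD, n = 2), and the steps to Hba-x, at 13.4 ± 3.83 (SD, n = 2), and Hbb-bh1, at 2.19 ± 0.581 (SD, n = 2), exceeded the range of the libraries in all 3 groups.

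The globins together took between 1.36% and 3.28% of the summed RPKM of a library. Their sum was 14920 RPKM in wild-type 5 and 7766 in wild-type 6, 11662 and 9468 in mutant 1 and 2, and 6263 and 5804 in Wnt1-Ribotag 1 and 2. The 3 primitive genes were a small part of it, between 2.22% and 4.62%, and Hbb-y made up nearly all of that part.

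The 2 wild-type libraries were far apart in the adult globins and close in Hbb-y. Wild-type 5 was above wild-type 6 by 0.92 on the log2 scale for Hba-a1 and by 1.09 for Hbb-bs. Of 14158 genes, 98.8% and 99.1% had a smaller gap between these 2 libraries, whose median absolute gap was 0.13. For Hba-x the gap was 0.57, for Hbb-bh1 0.44 and for Hbb-y 0.05. Between mutant 1 and mutant 2 the signs were opposite in the 2 classes of beta globin, with 0.35 for Hbb-bs and -0.50 for Hbb-y. The Wnt1-Ribotag libraries were closest to each other for the adult alpha genes, with a gap of 0.06 for Hba-a1.

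Ratios between globins of the same library do not depend on a single scaling factor per library, but quantile normalization, which changes genes of a library unequally, moves them. The embryonic share of the alpha-type RPKM, which is that of Hba-x, was 0.163% and 0.205% in wild-type, 0.155% and 0.184% in mutant and 0.311% and 0.428% in Wnt1-Ribotag libraries. The Wnt1-Ribotag values thus lay above those of the other 4 libraries, and the wild-type and mutant values overlapped. The embryonic share of the beta-type RPKM, from Hbb-y and Hbb-bh1, was 7.18% and 13.7% in wild-type, 5.85% and 10.3% in mutant and 8.85% and 7.76% in Wnt1-Ribotag libraries, and all groups overlapped. In each library the embryonic share was therefore far higher among beta-type than among alpha-type transcripts.

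The ratio of alpha-type to beta-type RPKM was 1.97 and 2.06 in wild-type, 1.76 and 1.78 in mutant and 2.10 and 2.41 in Wnt1-Ribotag libraries, and these groups did not overlap. Their means were 2.02 ± 0.0617 (SD, n = 2), 1.77 ± 0.0145 (SD, n = 2) and 2.25 ± 0.217 (SD, n = 2). Among the adult genes alone the ratio was 2.12 and 2.38, 1.87 and 1.98, and 2.30 and 2.60 in the same order, where wild-type and Wnt1-Ribotag values overlapped and the mutant values remained the lowest. Under quantile normalization the order of the fold changes behind the mutant ratio turned only in part. Hba-a1 was at 0.00 and Hbb-bs at -0.11 against wild-type, where without it they were at -0.10 and 0.12. Hba-a2, at -0.17, still lay below both Hbb-bs and Hbb-bt, the latter at -0.03. Within the embryonic genes, the ratio of Hba-x to Hbb-y was 0.0451 and 0.0309 in wild-type, 0.0468 and 0.0320 in mutant and 0.0740 and 0.133 in Wnt1-Ribotag libraries. Hbb-bh1 was between 0.365% and 0.727% of Hbb-y, lowest in the Wnt1-Ribotag libraries. A two-sided exact permutation test of 2 libraries against 2 cannot go below p = 0.333, so no ratio was tested.

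**Figure D2:**
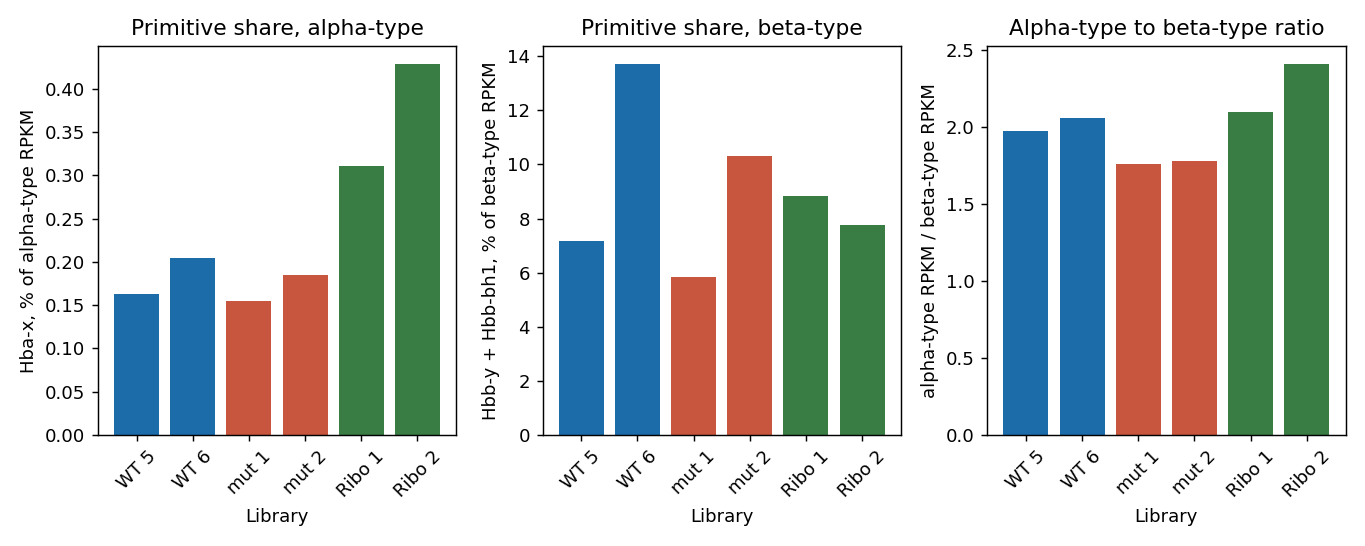
Share of Hba-x in the alpha-type RPKM (left, percent), share of Hbb-y and Hbb-bh1 in the beta-type RPKM (middle, percent) and ratio of alpha-type to beta-type RPKM (right), with 1 bar per library and axes from 0. Hba-x takes 0.311% and 0.428% in the Wnt1-Ribotag libraries against at most 0.205% elsewhere, the beta-type shares overlap, and the ratio is lowest in the mutant libraries at 1.76 and 1.78.

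The comparison of mutant with wild-type muscle asks what differs in the diaphragm without Schwann cells. No globin gene passed the test. The adult genes were close to level, with mutant means of 3465 ± 499 RPKM (SD, n = 2) for Hba-a1 and 1962 ± 333 (SD, n = 2) for Hbb-bs, both within the range of the wild-type libraries. The embryonic genes had somewhat lower mutant means, at 298 ± 72.9 RPKM (SD, n = 2) for Hbb-y, 11.3 ± 0.223 (SD, n = 2) for Hba-x and 1.46 ± 0.239 (SD, n = 2) for Hbb-bh1. In limma on log2(RPKM + 0.5), 0 of the 7 globins passed a Benjamini-Hochberg adjusted p of 0.05, against 24 of 14052 genes tested (0.171%), and 0 of the 7 had an unadjusted p under 0.05, against 1691 of all genes.

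The log2 fold change was -0.10 for Hba-a1 (SE 0.34, adjusted p = 0.908 from limma) and 0.12 for Hbb-bs (SE 0.35, adjusted p = 0.895). Their 95% intervals, -0.89 to 0.69 and -0.70 to 0.94, span changes in both directions. For Hbb-y it was -0.26 (SE 0.20, adjusted p = 0.547 from limma) and for Hba-x -0.20 (SE 0.19, adjusted p = 0.627). For Hbb-bh1 it was -0.45 (SE 0.20, unadjusted p = 0.0560 and adjusted p = 0.419 from limma), below 0 in 4 of 4 pairs of libraries. Hbb-bh1 was the 1 globin whose mutant and wild-type libraries did not overlap, and 37.4% of all genes tested lay lower without overlap, with 12.7% higher.

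By class, the median log2 fold change was 0.01 for the 4 adult genes, with 2 above and 2 below 0, and -0.26 for the 3 embryonic genes, all below 0. The median over all genes tested was -0.10. It moved to 0.00 under quantile normalization, where Hba-a1 was at 0.00 and Hbb-bs at -0.11. The adult median turned with the wild-type library, being 0.51 without wild-type 5 and -0.49 without wild-type 6, and with the mutant library, being -0.16 without mutant 1 and 0.17 without mutant 2. The embryonic median was -0.23 without wild-type 5, -0.49 without wild-type 6 and -0.52 without mutant 2.

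Markers of red cell precursors other than globins stood lower in the mutant in the same libraries. Of the 9 erythroid markers tested, 9 had a fold change below 0, 8 without overlap between the groups, as were 37.4% of all genes tested, and 0 past the test, with a median log2 fold change of -1.73. Without wild-type 5 the median was -1.34 over the 6 that then passed the filter, of which 1 passed the test, and without wild-type 6 it was -2.21 over 9, of which 8 did. Slc4a1, the band 3 anion exchanger of the red cell membrane, was at 15.4 and 7.04 RPKM in wild-type, 2.69 and 0.696 in mutant and 16.7 and 9.14 in Wnt1-Ribotag libraries. Alas2, the enzyme that starts haem synthesis in red cells, was at 17.2 and 9.07, 12.2 and 6.08, and 9.63 and 11.0 RPKM, and overlapped. The summed level of the erythroid markers was 26.8 to 58.0 RPKM in wild-type, 8.60 to 19.0 in mutant and 55.6 to 89.6 in Wnt1-Ribotag libraries, and none of the 9 was at the floor in any library. Liver transcripts were also lower in the mutant libraries. Of 9 hepatocyte markers tested all lay lower in the mutant without overlap (37.4% of all genes tested), with a median of -3.05, and 2 passed, Afp (alpha-fetoprotein) and Alb (albumin). Without wild-type 5 their median was -2.27 and 8 of 8 passed, and without wild-type 6 it was -4.08 and 9 of 9 passed. Over all genes these fits called 106 of 14017 and 90 of 13985. Their summed level was 153 to 503 RPKM in wild-type, 10.2 to 17.8 in mutant and 198 to 281 in Wnt1-Ribotag libraries, and none was at the floor. In wild-type 5 both lists, and the adult globins, were higher than in wild-type 6. The fetal liver is the organ that makes definitive red cells at this age and lies against the diaphragm. The part of adhering liver or of precursor cells in the globin values was not tested.

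**Figure D3:**
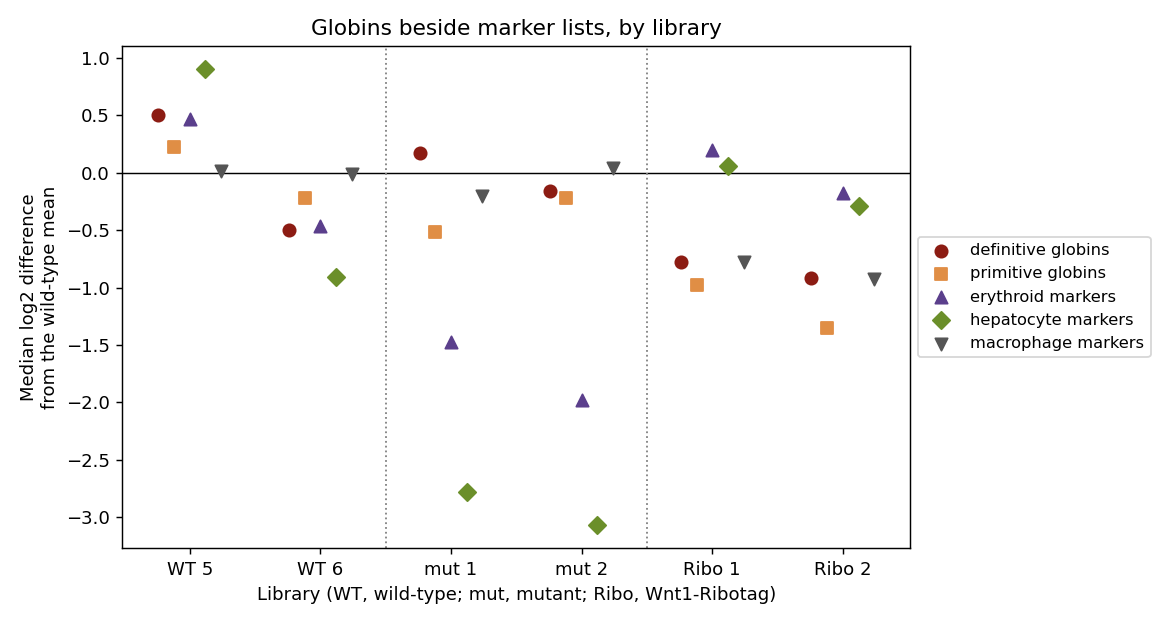
Median log2 difference of each list from the mean of the wild-type libraries, on log2(RPKM + 0.5), for the adult (definitive) globins, the embryonic (primitive) globins and 3 lists of cell type markers, with 1 symbol per list and library. In the mutant libraries the adult globins lie at 0.17 and -0.16 while erythroid markers lie at -1.47 and -1.98 and hepatocyte markers at -2.78 and -3.07. In the Wnt1-Ribotag libraries the globins and macrophage markers lie below 0 and the erythroid markers at 0.20 and -0.18.

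The comparison of Wnt1-Ribotag with wild-type libraries asks which transcripts the precipitation of tagged ribosomes enriched or left behind. Globin RNA was still abundant after it, and 6 of the 7 genes had lower levels than in whole wild-type muscle without any overlap. Hba-a1 was at 2147 ± 63.9 RPKM (SD, n = 2) against 3891 ± 1703 (SD, n = 2), Hbb-bs at 967 ± 109.6 (SD, n = 2) against 1925 ± 983 (SD, n = 2) and Hbb-y at 155 ± 32.9 (SD, n = 2) against 352 ± 8.28 (SD, n = 2). Hba-x was the exception, at 15.4 ± 3.10 RPKM (SD, n = 2) against 13.4 ± 3.83 (SD, n = 2), and overlapped. Lower without overlap were 31.0% of all genes tested and higher 23.3%.

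No globin passed an adjusted p of 0.05 in limma, where 1 of 14418 genes did (0.00694%), and 2 of the 7 had an unadjusted p under 0.05, as did 2813 of all genes. These were Hbb-y, at -1.20 on the log2 scale (SE 0.20, unadjusted p = 0.00194 and adjusted p = 0.152 from limma), and Hbb-bh1, with -1.28 (SE 0.31, unadjusted p = 0.00831 and adjusted p = 0.179). Both were below 0 in 4 of 4 pairs of libraries. The adult genes lay between -0.92 for Hbb-bt (SE 0.38, adjusted p = 0.278 from limma) and -0.78 for Hba-a1 (SE 0.34, adjusted p = 0.289), with all 4 pairs below 0 for each gene. Hba-x was at 0.20 (SE 0.27, adjusted p = 0.707 from limma), with 3 of 4 pairs above 0.

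The median log2 fold change was -0.85 for the adult and -1.20 for the embryonic genes, against -0.05 over all genes tested. The size of the adult difference depended on the wild-type library, with a median of -0.34 without wild-type 5 and -1.35 without wild-type 6. Without Wnt1-Ribotag 1, Hbb-y was at -1.41 and Hbb-bh1 at -1.36, and without Wnt1-Ribotag 2 they were at -0.98 and -1.21. In these fits the remaining library is assumed to vary like the wild-type ones.

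Other transcripts of blood did not all go the way of the globins. Over the 9 erythroid markers the median log2 fold change was -0.05, with 4 above and 5 below 0, and it turned with the wild-type library, being 0.39 without wild-type 5 and -0.49 without wild-type 6, where 1 of the 9 passed in each case. Over all genes these fits called 26 of 14420 and 67 of 14425. Macrophage markers, by contrast, were lower without overlap in 7 of 7 genes tested (31.0% of all genes), with a median of -0.91 and 0 past the test. Their summed level was 64.1 to 71.4 RPKM in Wnt1-Ribotag libraries, 124 to 139 in wild-type and 113 to 134 in mutant libraries, with 1 of the 8, Cd163, at the floor in 1 library. The Schwann cell lineage markers, the target of the precipitation, had a median of 2.69 with 8 of 8 above 0 and without overlap (23.3% of all genes), and 0 passed. What part the carry-over of untagged RNA had in the globin levels was not tested.

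**Figure D4:**
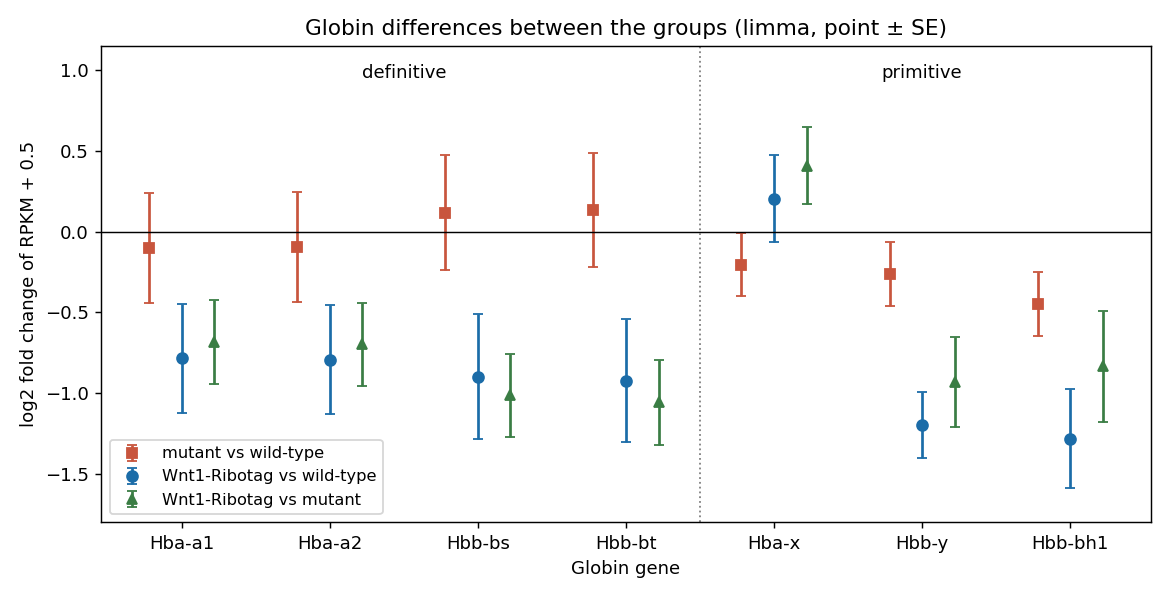
Log2 fold change of each globin gene from limma, on RPKM + 0.5, with bars of 1 SE, for mutant vs wild-type (squares), Wnt1-Ribotag vs wild-type (circles) and Wnt1-Ribotag vs mutant (triangles). The mutant squares lie between -0.45 and 0.14, both Wnt1-Ribotag comparisons lie between -1.28 and -0.68 for 6 of the genes, and Hba-x lies above 0 in them at 0.20 and 0.41.

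Against mutant muscle the Wnt1-Ribotag libraries gave a like picture. These libraries are the ones compared with wild-type above, so the comparisons are not independent. All 7 globins were without overlap, 6 of them lower in Wnt1-Ribotag and Hba-x higher, where 24.4% of all genes tested lay lower and 29.7% higher without overlap. In limma 0 of the 7 passed an adjusted p of 0.05, against 171 of 14325 genes (1.19%), and 6 of the 7 had an unadjusted p under 0.05, against 2758 of all genes.

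Hbb-bt was at -1.06 on the log2 scale (SE 0.26, unadjusted p = 0.00585 and adjusted p = 0.127 from limma) and Hbb-bs was at -1.01 (SE 0.26, adjusted p = 0.132). The adult alpha genes had smaller values, -0.68 for Hba-a1 (SE 0.26, adjusted p = 0.228 from limma) and -0.70 for Hba-a2 (SE 0.26, adjusted p = 0.219). Hbb-y was at -0.93 (SE 0.28, adjusted p = 0.167 from limma) and Hbb-bh1 at -0.83 (SE 0.35, adjusted p = 0.256), and the latter lay below Hbb-bt with a pseudocount of 0.1, at -1.16, and with quantile normalization, at -1.05. Hba-x was at 0.41 (SE 0.24, adjusted p = 0.392 from limma), and its levels of 13.2 and 17.6 RPKM stood against 11.5 and 11.2 in the mutant. Whether Hba-x differed from the other globins in its response was not tested.

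The median was -0.86 for the adult and -0.83 for the embryonic genes, and 0.04 over all genes. That last value moved to 0.18 when libraries were scaled to their RPKM total without globins, where the medians of the globins were -0.70 and -0.73. Without Wnt1-Ribotag 1, Hbb-y (adjusted p = 0.0317 from limma) and Hbb-bh1 (adjusted p = 0.0219) passed, and without Wnt1-Ribotag 2 Hbb-bh1 did (adjusted p = 0.0375). These fits called 2538 of 14279 and 3672 of 14100 genes. In the same comparison the 9 erythroid markers had a median of 1.72, with all 9 above 0. Hepatocyte markers passed in 8 of 10, all higher, with a median of 3.03, where 171 of 14325 genes tested (1.19%) passed. The part of either cell type in the globin differences was not tested.

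The genes that serve globin expression were also read in each comparison, as lists chosen with earlier results of these data known. Of 9 genes of haem synthesis 0 passed in any comparison, with medians of -0.34 in mutant vs wild-type, -0.24 in Wnt1-Ribotag vs wild-type and 0.00 in Wnt1-Ribotag vs mutant. Without wild-type 5 the first and second were -0.15 and -0.07, and without wild-type 6 they were -0.34 and -0.41. Alad, which joins the first precursors of haem, was at 78.4 and 53.7 RPKM in wild-type, 43.0 and 54.0 in mutant and 27.0 and 21.9 in Wnt1-Ribotag libraries, so that, as for Hbb-y, the Wnt1-Ribotag libraries were lowest without overlap.

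Of the erythroid transcription factors, 0 of 9 passed in mutant vs wild-type, 0 of 10 in Wnt1-Ribotag vs wild-type and 0 of 9 in Wnt1-Ribotag vs mutant, with medians of -0.79, -0.02 and 0.82. In mutant vs wild-type the median was -0.37 over 7 genes without wild-type 5 and -0.76 over 9 without wild-type 6, and in Wnt1-Ribotag vs wild-type it was 0.22 and 0.01. Gata1, the master factor of red cell precursors, was at 2.30 and 0.964 RPKM in wild-type, 0.230 and 0.111 in mutant and 1.84 and 0.738 in Wnt1-Ribotag libraries. Klf1, which activates adult beta globin through the CACCC box, was at 4.21 and 1.54, 0.758 and 0.196, and 1.29 and 1.02 RPKM. Both had mutant levels below all other libraries, with log2 fold changes against wild-type of -1.60 for Gata1 (SE 0.29, adjusted p = 0.111 from limma) and -1.73 for Klf1 (SE 0.40, adjusted p = 0.184), while Hbb-bs did not.

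Of 14 regulators of globin switching tested, 0 passed in any comparison, with medians of -0.28, -0.07 and 0.18. Bcl11a, the repressor of embryonic globin genes, was at 3.74 and 4.29 RPKM in wild-type, 2.47 and 2.75 in mutant and 4.08 and 3.92 in Wnt1-Ribotag libraries. It was lower in mutant than in wild-type libraries without overlap, with a difference of -0.54 (SE 0.16, log2 scale, adjusted p = 0.303 from limma). Lower without overlap were also 37.4% of all genes tested, and 9 of these 14 regulators, Bcl11a among them. Bcl11a is also made by cells other than red cell precursors.

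Genes of the red cell membrane and skeleton were called 0 times of 14 in mutant vs wild-type, 1 time in Wnt1-Ribotag vs wild-type and 5 times in Wnt1-Ribotag vs mutant, with medians of -1.18, 0.42 and 1.97. Of all genes tested, 0.171%, 0.00694% and 1.19% were called in these comparisons. The first median was -1.21 over 12 genes without wild-type 5 and -1.48 over 14 without wild-type 6, and the second was 0.65 and 0.16. The 1 gene called against wild-type in the whole table was Sptb, the red cell beta spectrin, at 3.27 and 2.36 RPKM in wild-type, 2.54 and 0.738 in mutant and 1479 and 1114 in Wnt1-Ribotag libraries (adjusted p = 0.00311 from limma). The adult globins, at 0.528 to 0.580 of the wild-type level in the fit, had no such excess.

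Among genes of iron and haem transport 1 of 10 passed in Wnt1-Ribotag vs mutant, the mitochondrial iron carrier Slc25a37, and 0 in the other comparisons. In Wnt1-Ribotag vs mutant 1.19% of all genes tested passed. Red cell enzymes and maturation genes passed in 0 of 12 in each comparison, with medians of -0.67, -0.18 and 1.05. Without wild-type 5 the first was -0.36 over 11 genes and the second 0.26, and without wild-type 6 they were -0.55 over 11 genes and -0.39. Among genes that clear haemoglobin and haem, 1 of 6 passed in Wnt1-Ribotag vs mutant, the plasma haem carrier Hpx, and 0 in the other comparisons.

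Over the 6 libraries the adult globins moved together, with Pearson's r of at least 0.977 between any pair of them on log2(RPKM + 0.5). Hbb-y and Hbb-bh1 had an r of 0.949 with each other and of 0.699 to 0.847 with the adult genes. Hba-x stood apart from all of them, with r between -0.540 and -0.0319. These values describe 6 points in 3 groups of 2 that share preparation within a group, and the genes of an adult pair may share reads.

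Of 13112 genes with a mean of at least 1 RPKM, the 6 whose pattern was most like the mean log2 level of the adult globins were Ctsh (r = 0.983), Cma1 (0.982), Slc29a1 (0.954), Arpin (0.948), Ankrd2 (0.947) and Plin3 (0.946). Cma1, a mast cell chymase, was at 2.48 and 0.681 RPKM in wild-type, 2.22 and 1.08 in mutant and 0.566 and 0.405 in Wnt1-Ribotag libraries. For the mean log2 level of the embryonic globins they were C1qb (r = 0.997), Alad (0.988), Gstm4 (0.987), Spi1 (0.979), Tifab (0.977) and Klhl25 (0.973). Hba-x had r of -0.540 with Hbb-y and -0.286 with Hbb-bh1, so this likeness is not that of each embryonic gene. As the highest of 13112 genes over only 6 libraries, the r of both lists are high by selection. C1qb, a complement gene of macrophages, was at 40.3 and 30.7, 24.8 and 32.0, and 19.8 and 19.1 RPKM. Gata1 had an r of -0.0289 with the adult and 0.129 with the embryonic globins, and Alas2 had 0.458 and 0.235.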

How the data were processed

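RNA of E14.75 mouse diaphragm was measured in 6 libraries, grouped by the genotypes in the labels, with 2 libraries in each of 3 groups. For each library the authors deposited RPKM, in which reads are divided by the length of the gene and by the depth of the library, for 23076 entries, of which 3 hold no value. A deposited mark (0 or 1, of no other unit) shows genes at a floor in place of 0. STAR and the build mm9 are named in the submitters' processing notes, and the program and annotation behind the RPKM are not given in the sources used here. The files hold no coordinates. Symbols and GRCm38 positions came from GENCODE M21 by Ensembl identifier (21583 matched, 1490 did not). Counts were not used, and the depth was read from the floor of single-exon microRNA genes, and counting error was not computed.

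Genes whose RPKM averaged at least 0.5 in the 4 libraries compared were tested as log2(RPKM + 0.5) with limma 3.58.1 (lmFit, eBayes with a trend) in R 4.3.3, adjusted by the Benjamini-Hochberg method at 0.05. A fold change on this scale understates the change of low genes such as Hbb-bh1. The procedure was tested on simulated data. No value was tested over the members, and lists are described by counts and medians. The genes named beside the globins are the 4 with the highest mean RPKM of a pathway list, the 3 highest of a cell type list, and Gata1, Klf1, Bcl11a, Alas2 and Erbb3; values are printed for part of them, and Afp, Slc25a37, Hpx and Cd163 are named because they passed or were at the floor, chosen after their values were seen. The genes most like the globins are the 6 with the highest Pearson's r over the 6 libraries. The members and lists were chosen with earlier results of these data known. Alternatives were pseudocounts of 0.1 and 1, no filter and a filter of 1 RPKM, scaling by median ratio, by quantile and without globins, no trend, all 6 libraries in a fit, the near-identical pairs summed, a replicate block and leaving out each library. Ahsp was not analysed here, and results for some genes of the lists are not reported here. Sequences were read with Biopython 1.88 in Python 3.11.15, intervals came from scipy 1.17.1, tables from pandas 2.3.3 on numpy 2.4.6, and plots from matplotlib 3.10.9.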

Additional observations from a re-analysis of the deposited data

How the results depend on the processing

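Each group has only 2 libraries, and counting error was not computed from the RPKM values. Where a library was left out, the lone one of its group was assumed to vary like the others. In mutant vs wild-type muscle no alternative called a globin. The count of genes called moved from 24 to 0 with no filter on low values and with all 6 libraries in the fit, to 45 with median-ratio scaling and to 78 with scaling to the total without globins, and lay between 10 and 106 when a library was left out. Signs turned for Hba-a1 (0.0096) and Hba-a2 (0.015) with median-ratio scaling and for Hbb-bt (-0.033) and Hbb-bs (-0.11) with quantile normalization. When a library was left out the log2 fold change lay between -0.56 and 0.36 for both Hba-a1 and Hba-a2, between -0.41 and 0.68 for Hbb-bt, between -0.43 and 0.66 for Hbb-bs and between -0.49 and 0.080 for Hba-x. The adult median then lay between -0.49 and 0.51 and the embryonic one between -0.52 and -0.22.

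In Wnt1-Ribotag vs wild-type the count of genes called moved from 1 to 0 with no filter, to 2 with median-ratio scaling and with scaling without globins, to 138 with all 6 libraries in the fit, and to between 26 and 5965 when a library was left out, where between 0 and 2 globins passed. The embryonic median was -0.99 with a pseudocount of 1, and between -1.36 and -0.98 when a library was left out, the adult one between -1.35 and -0.34, and Hba-x lay between -0.081 and 0.49. In Wnt1-Ribotag vs mutant the count moved from 171 to 112 with no filter, 83 with quantile normalization, 692 with all 6 libraries in the fit and between 112 and 3672 when a library was left out, where between 0 and 2 globins passed. The adult median was -0.49 with quantile normalization, and the embryonic one -0.62 with a pseudocount of 1, -0.69 with quantile normalization, and between -0.96 and -0.68 when a library was left out, when the adult one lay between -1.02 and -0.70. The cause of these changes was not tested.

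Wnt1-Ribotag and mutant libraries share the replicate numbers 1 and 2 but came from different litters, and nothing in the labels ties the numbers to a shared day or batch, so they were not taken as pairs. The deviations of same-numbered libraries correlated with r = 0.168 across genes, and whether they share variation was not settled with 2 libraries a group. With the replicate number as a block, 842 genes and 5 globins passed, Hbb-y, Hba-a1, Hba-a2, Hbb-bt and Hbb-bs, with adjusted p from limma between 0.0011 and 0.042. The other comparisons share no number, so no block was fitted there. The shares of embryonic globins and the ratio of alpha-type to beta-type RPKM lay, with 1 library left out, between 0.155% and 0.428%, between 5.85% and 13.7% and between 1.76 and 2.41.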

Other observations

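Globin genes outside the 7 stayed below 10 RPKM in every library. Mb, the myoglobin of muscle, was at 6.08 and 4.76 RPKM in wild-type, 7.85 and 7.09 in mutant and 6.31 and 7.18 in Wnt1-Ribotag libraries, at 0.44 on the log2 scale for mutant against wild-type (adjusted p = 0.390 from limma). Cygb, the cytoglobin of connective tissue cells, was at 9.04 and 9.30, 8.85 and 6.66, and 7.22 and 6.14 RPKM. The theta globin genes of the alpha cluster had their lowest levels in the precipitated RNA. Hbq1b was at 1.16 and 0.711 RPKM in wild-type, 0.442 and 0.312 in mutant and 0.0144 and 0.0103 in Wnt1-Ribotag libraries, at the floor in 2 of the 6 libraries, and Hbq1a at 0.656 and 0.464, 0.338 and 0.242, and 0.0134 and 0.0192 RPKM. Neither was tested against Wnt1-Ribotag libraries, being below the filter. Hbb-bh2 and Ngb (neuroglobin) stayed below 0.3 RPKM in every library.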
